A study of Mus musculus with 6 samples.

Results

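The comparison set cells labelled as macrophages (MAC in the labels) from the mouse fetal liver at embryonic day E11.5 against erythro-myeloid progenitors (EMPs) from the same organ and day. The first group is called the MAC library here. Each group was 1 bulk RNA library, so these 2 libraries of the 6 in the series were compared gene by gene. Members of the comparison were the genes that reached 10 FPKM in either library, 3179 of the 17909 genes in the table. FPKM is fragments per kilobase of transcript, scaled to the mapped fragments of the library. Differences are given as log2(FPKM + 1) in the MAC library minus the same in EMPs. A gene was called higher or lower at a difference of at least 2, a 4-fold change on that scale.

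Both groups came from embryos with a mixed C57BL/6 and FVB background (C57BL/6xFVB in the labels). In both, cells were sorted with the Csf1r-iCre fate-mapping model, in which a recombinase driven by regulatory sequence of Csf1r marks cells that have used that gene and their descendants. The mark was thus shared, and a cell that carried it need not have used Csf1r at the time of sorting. The labels describe the MAC cells as macrophages derived from early EMPs. They spell out no surface gates, though the EMP description holds LiB7_neg and that of liver mast cell progenitors LiB7_pos. They do not say whether embryos were pooled, and nothing beyond these 2 libraries measured the spread between samples. No standard error or test was therefore available, and all counts describe these libraries.

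EMPs are blood progenitors that arise in the yolk sac, seed the fetal liver and give rise to erythroid, megakaryocytic, mast cell, granulocytic and macrophage lineages. A progenitor that matures towards neutrophils or macrophages lowers the receptor for stem cell factor and its growth programme. It loads granules and lysosomes with antimicrobial proteins. Neutrophil granules are filled in order, with primary granule proteases and myeloperoxidase made at the promyelocyte stage and secondary granule proteins made later. Eosinophil granules hold major basic protein, a peroxidase and small ribonucleases.

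In outline, the MAC library was higher in genes of eosinophil granules, late neutrophil granules, monocytes, some macrophage identity genes, complement and chemotaxis. It was lower in progenitor receptors and regulators, fetal growth genes, ribosome biogenesis, chaperones and some genes of several synthesis pathways. Of the 3179 genes, 76 (2.39%) were called higher and 21 (0.661%) were called lower, while 2660 (83.7%) differed by less than 2-fold. The median difference over the 3179 genes was −0.29, and median-of-ratios scaling, from 7708 genes at 1 FPKM or more in both libraries, raised all differences by about 0.27 on the log2 scale. After scaling, 87 genes were higher and 14 lower, among them all 76 of the higher calls and 14 of the 21 lower calls. The 7 lower calls lost after scaling were Fam65a, 1110004E09Rik, Bcl11a, Egln3, Phgdh, Srm and Eef1a1. Higher calls made up 78.4% of calls as deposited and 86.1% after scaling. As TPM, where a limit of 10 is lower than 10 FPKM, 286 of 8120 genes were higher and 206 lower, so that higher calls made up 58.1%. Estimated depth was 11300000 fragments in the MAC library and 12250000 in EMPs. At those depths 10 FPKM on a 2 kb transcript stood for about 226 fragments in the MAC library, against 245 in EMPs.

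**Figure D1:**
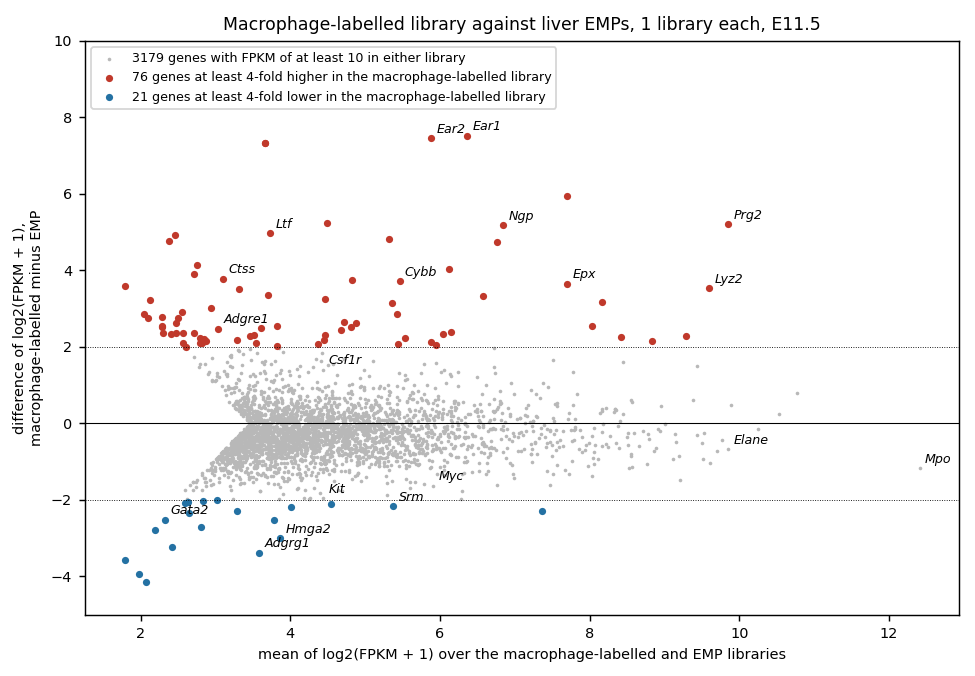
Difference of log2(FPKM + 1), macrophage-labelled minus EMP (vertical), against the mean log2(FPKM + 1) of both libraries (horizontal) for the 3179 genes, with dotted lines at the call limits. The 76 genes called higher reach a difference of 7.52 at Ear1, and most of the cloud lies slightly below 0.

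Genes were grouped by function into lists, which were read at a 2-fold limit over genes with at least 1 FPKM in either library. Over all 9124 such genes, 5.86% were at least 2-fold higher and 9.84% at least 2-fold lower, with a median difference of −0.24. After median-of-ratios scaling these shares were 7.85% higher and 5.86% lower, with a median of −0.02. Some genes belong to more than 1 list. As a gauge of scatter among genes that cells use at steady levels, 89 subunit genes of the proteasome and respiratory chain had a median of −0.41 with an SD of 0.42 across genes. None of the 89 was 2-fold higher, 7 were 2-fold lower, and none passed 4-fold. The 89 are not every such subunit, and Ndufb11, a complex I subunit outside them, was called higher with 23.1 FPKM in the MAC library and 4.67 FPKM in EMPs.

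**Figure D2:**
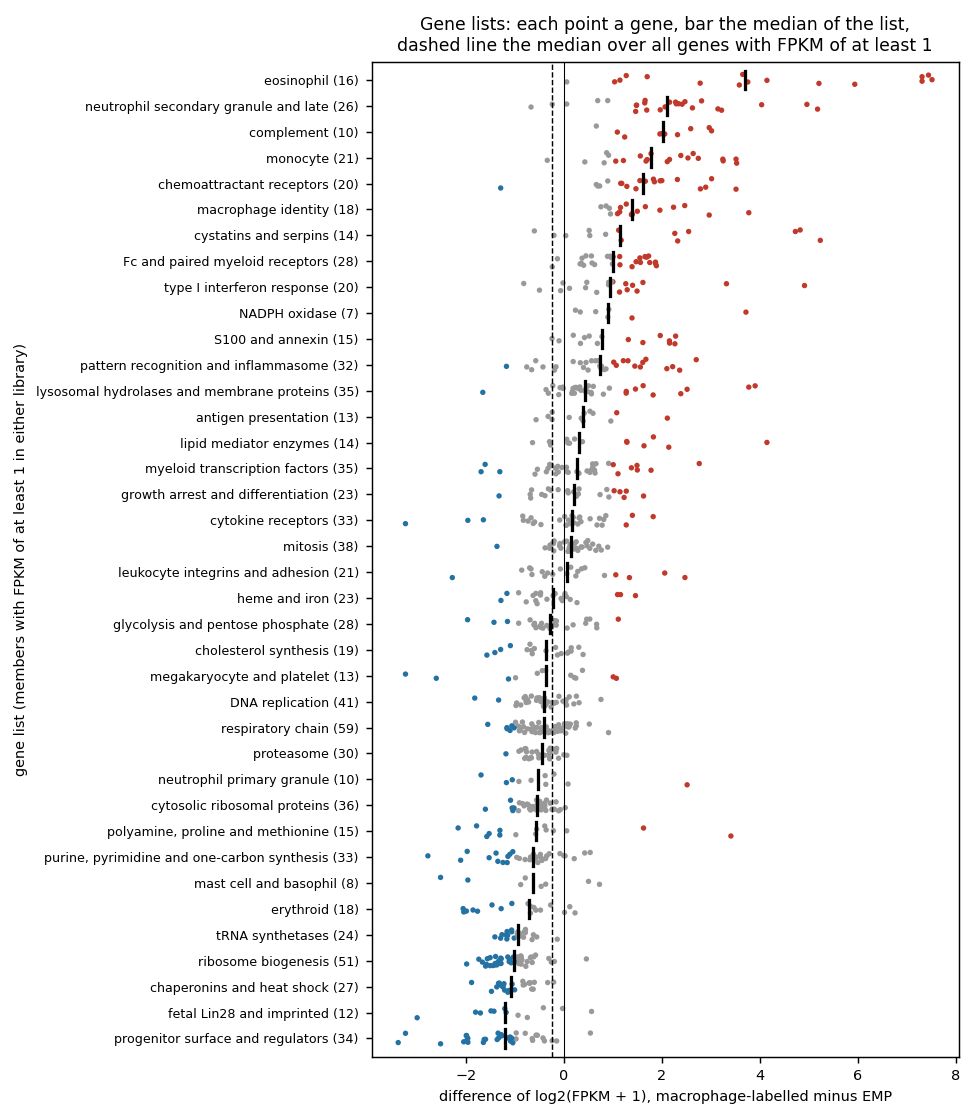
Difference of log2(FPKM + 1), macrophage-labelled minus EMP, for members of each gene list (points, red at least 2-fold higher, blue at least 2-fold lower), with list medians as bars. Medians run from 3.70 for the eosinophil list to −1.21 for progenitor genes, and the dashed line marks −0.24 over all genes.

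Genes that define macrophages were set beside the label first. Csf1r, the receptor for macrophage colony-stimulating factor, stood at 34.1 FPKM in the MAC library, against 12.3 FPKM in EMPs, a difference of 1.40. Adgre1, which encodes F4/80, had a difference of 2.47, with 18.4 FPKM in the MAC library and 2.50 FPKM in EMPs. Ptprc, the pan-leukocyte protein CD45, stood at 39.6 FPKM in the MAC library, against 12.9 FPKM in EMPs. Markers that define mature resident liver macrophages were nearly absent. Timd4, a phosphatidylserine receptor of Kupffer cells, was at 0.65 FPKM in the MAC library and listed at 0 in EMPs. Marco, Clec4f and Cd163, scavenger and lectin receptors, were at 0.18, 0.15 and 0.02 FPKM in the MAC library, while Vsig4, Spic and Cd5l were listed at 0 there. In EMPs Vsig4 was at 0.06 FPKM and the other 5 of these genes were listed at 0. Because Timd4 and these genes mark mature cells, their low levels at E11.5 cannot decide the label.

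Eosinophil and late neutrophil genes took a far larger part of the MAC library than macrophage genes did. The eosinophil list held 6.48% of its FPKM sum and 0.187% of that of EMPs. The secondary granule and late neutrophil list held 2.68% in the MAC library and 0.483% in EMPs. The macrophage identity list held 0.0931% in the MAC library and 0.0187% in EMPs. The library is therefore called by its label throughout. In bulk RNA, more cells of a type and more RNA per cell cannot be told apart, and the part of granulocytes or their precursors in the differences below was not tested.

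The ribonuclease genes Ear1, Ear2 and Ear6 were among the genes with the largest differences, and they share sequence. Their first 120 bases upstream of the start site are shown beside their values as an example of how alike these copies are. All are from RefSeq on GRCm38.p6 (mm10), written 5′ to 3′ on the gene's strand, with capitals in Ear6 at bases that do not align as identical to Ear1. Start sites are those of RefSeq, and the GENCODE genes Ear1 and Ear6 overlap the stretches shown.
Ear1, chr14:43819640-43819759, minus strand: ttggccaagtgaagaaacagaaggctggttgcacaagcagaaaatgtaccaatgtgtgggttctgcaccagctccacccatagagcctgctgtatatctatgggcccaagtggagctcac
Ear2, chr14:44102534-44102653, plus strand: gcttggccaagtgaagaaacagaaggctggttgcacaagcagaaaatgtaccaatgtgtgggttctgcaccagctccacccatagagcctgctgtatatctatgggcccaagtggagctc
Ear6, chr14:51853648-51853767, plus strand: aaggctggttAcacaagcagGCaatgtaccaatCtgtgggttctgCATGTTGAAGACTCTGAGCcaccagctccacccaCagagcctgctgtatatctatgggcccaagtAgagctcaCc
Over the aligned promoters Ear1 was 97.6% identical to Ear2 and 78.2% identical to Ear6. Over the longest transcripts the identities were 96.4% with Ear2 and 88.2% with Ear6, so reads of these transcripts can be split between copies. Single values of these genes are therefore uncertain, although all 3 were called higher.

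Further upstream regions are shown for late neutrophil granule genes called higher, with capitals at the letters TTGCNNAA, bound by C/EBP factors that drive granule genes. They are the 3 genes outside the Ear family with the largest differences among those that held these letters. Upstream is counted from RefSeq start sites, and all 3 GENCODE genes reach into the stretches shown. The second marked letters of Ngp and those of Lcn2 lie inside the GENCODE gene.
Ngp, chr9:110419660-110419807, plus strand: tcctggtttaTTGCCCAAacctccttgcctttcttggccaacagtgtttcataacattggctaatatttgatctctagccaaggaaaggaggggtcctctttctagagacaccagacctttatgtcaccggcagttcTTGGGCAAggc
Ltf, chr9:111019172-111019291, plus strand: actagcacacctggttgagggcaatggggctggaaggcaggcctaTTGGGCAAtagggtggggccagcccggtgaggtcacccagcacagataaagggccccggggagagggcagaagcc
Lcn2, chr2:32387740-32387965, minus strand: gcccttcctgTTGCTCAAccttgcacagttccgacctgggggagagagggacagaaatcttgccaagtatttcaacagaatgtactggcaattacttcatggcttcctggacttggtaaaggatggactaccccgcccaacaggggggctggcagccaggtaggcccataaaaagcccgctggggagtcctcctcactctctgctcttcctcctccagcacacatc
Each promoter was searched on both strands over 250 bases upstream, and these letters were held by 15 of the 58 higher genes with a promoter (25.9%). They were held by 9.89% of the 13619 promoters matched to the table and by 9.36% of those of genes at 10 FPKM or more. None of the 11 lower genes with a promoter held them. Within the lists, 9 of 23 late neutrophil promoters (39.1%) and 5 of 13 eosinophil promoters (38.5%) held them. The PU.1 letters GAGGAAG had the same count in the late neutrophil list, 9 of 23 (39.1%), and were in 2 of 13 eosinophil promoters (15.4%). The PU.1 letters were in 24.1% of higher promoters and 12.7% of all, and the GATA letters AGATAA in 17.2% of higher promoters and 9.16% of all. The E-box letters CACGTG, bound by MYC, were in 4.55% of ribosome biogenesis promoters and 8.48% of all. The interferon response element, searched in the same way, was in 5.17% of higher promoters and 3.25% of all. None of the 5 motifs contains another, near-identical copies such as Ear1 and Ear2 count separately, and a match is a description of letters only.

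The eosinophil list was the highest of all lists, with 15 of 16 members at least 2-fold higher, none lower and a median of 3.70 (3.96 after scaling). Prg2, major basic protein, was the most abundant gene of the MAC library with 5617 FPKM, 37.2 times its level in EMPs. Prg3, its homolog, stood at 103 FPKM in the MAC library, against 6.71 FPKM in EMPs. Alox15, a lipoxygenase of eosinophils, stood at 27.3 FPKM in the MAC library and 0.60 FPKM in EMPs. These genes encode proteins and enzymes that mature eosinophils hold, and the stage of the cells that held this RNA was not tested. Ear3 and Ear12 had identical values in all 6 libraries, 158 FPKM in the MAC library and a listing of 0 in EMPs, and cannot be read as separate genes. Receptors of the lineage moved less. Il5ra, the interleukin-5 receptor chain, stood at 5.04 FPKM in the MAC library, against 1.50 FPKM in EMPs. Siglecf, a surface lectin of eosinophils, stood at 39.5 FPKM in the MAC library, against 18.7 FPKM in EMPs. Ccr3, the eotaxin receptor, was under 1 FPKM in both libraries, at 0.91 in the MAC library and listed at 0 in EMPs. Cebpe, a regulator of granule genes in both granulocyte lineages, hardly differed, with 47.0 FPKM in the MAC library and 45.1 FPKM in EMPs.

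Neutrophil genes differed between granule classes. Of the 10 primary granule members, 1 was 2-fold higher and 3 were 2-fold lower, with a median of −0.53 (−0.26 after scaling). That median was close to the −0.41 of the subunit genes, so the list as a whole was not clearly lower. Mpo, myeloperoxidase, was the most abundant gene of EMPs and stood at 3621 FPKM in the MAC library, against 8174 FPKM in EMPs. Prtn3, proteinase 3, stood at 184 FPKM in the MAC library, against 383 FPKM in EMPs. Ctsg, cathepsin G, was the lowest of the list with a difference of −1.69. Elane, neutrophil elastase, was less than 2-fold apart, at 732 FPKM in the MAC library and 1166 FPKM in EMPs. After scaling, Ctsg alone stayed 2-fold lower. The 1 member that was 2-fold higher was Ctsc, the lysosomal protease that activates these serine proteases, with 66.0 FPKM in the MAC library, against 10.7 FPKM in EMPs.

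Secondary granule and late neutrophil genes were higher as a list, with 21 of 26 members at least 2-fold higher, none lower and a median of 2.11 (2.38 after scaling). Ngp, neutrophilic granule protein, differed by 5.18, and Ltf, the iron-binding lactoferrin, by 4.96. Lcn2, a siderophore-binding lipocalin, stood at 281 FPKM in the MAC library, against 16.1 FPKM in EMPs. Camp, the cathelicidin, stood at 147 FPKM in the MAC library and 28.2 FPKM in EMPs. S100a9 and S100a8, the calprotectin subunits, had differences of 2.28 and 2.16. Genes of the last stages were low in level. Mmp9, gelatinase B, was at 2.65 FPKM in the MAC library, against 0.13 FPKM in EMPs. Ly6g, a surface marker of mature neutrophils, was at 2.14 FPKM in the MAC library and listed at 0 in EMPs. Csf3r, the G-CSF receptor, was the lowest of the list at −0.67, with 12.9 FPKM in the MAC library, against 21.1 FPKM in EMPs.

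**Figure D3:**
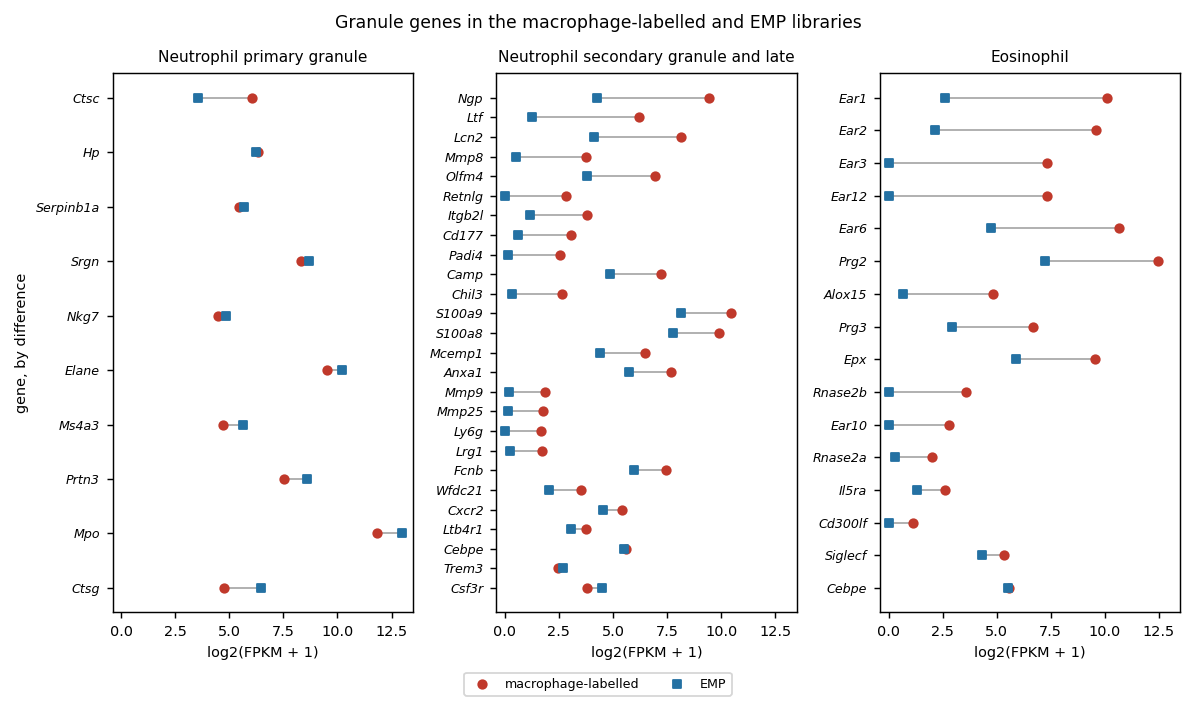
log2(FPKM + 1) of granule genes with at least 1 FPKM in either library (red circles macrophage-labelled, blue squares EMP), ordered by difference within each list. In the primary granule panel 1 gene is 2-fold higher and 3 are 2-fold lower, while 21 of 26 and 15 of 16 genes are 2-fold higher in the other panels.

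Cysteine protease inhibitors of the stefin A family were among the largest differences. Stfa2 differed by 5.24, with 137 FPKM in the MAC library and 2.66 FPKM in EMPs. Stfa2l1, a near copy with 96.5% identical transcript sequence, differed by 4.73, with 558 FPKM in the MAC library, against 20.1 FPKM in EMPs. Stfa1 stood at 748 FPKM in the MAC library, against 155 FPKM in EMPs. The family’s 6 called genes sit together on chromosome 16 at 36156811 to 36455392 (GRCm38), and reads of such copies can be assigned to the wrong one. Of the 72 higher genes with a GENCODE position, 15 lay in 5 runs whose members were within 200 kb of each other, and none of 18 lower genes did. The other runs were Prg2 and Prg3 with Ube2l6, Lyz1 with Lyz2, S100a8 with S100a9, and Ifitm3 with Ifitm6. Runs were not counted over all 3179 genes, and a smaller set leaves fewer possible neighbours, so higher and lower genes are not compared. Cst3, the secreted cystatin C, was less than 2-fold apart, at 149 FPKM in the MAC library and 82.2 FPKM in EMPs. Over the whole list of cystatins and serpins 8 of 14 members were 2-fold higher and none lower, with a median of 1.14 (1.24 after scaling).

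The monocyte list had 16 of 21 members at least 2-fold higher, none lower and a median of 1.78 (2.01 after scaling). Ccr2, the receptor that draws monocytes out of blood-forming tissue, stood at 32.6 FPKM in the MAC library, against 1.94 FPKM in EMPs. Ly6c2, the classical monocyte surface marker, stood at 65.0 FPKM in the MAC library, against 9.59 FPKM in EMPs. Klf4, a regulator of monocyte differentiation, stood at 16.1 FPKM in the MAC library and 3.99 FPKM in EMPs. Transcription factor Irf8, which directs progenitors to the monocyte fate, was under 2-fold, at 23.5 FPKM in the MAC library, against 12 FPKM in EMPs. Lyz2 and Lyz1, lysozymes shared with neutrophils, differed by 3.53 and 3.25 and are 95.8% identical in transcript. Fn1, fibronectin, stood at 13.6 FPKM in the MAC library, against 1.18 FPKM in EMPs. F13a1, coagulation factor XIII of monocytes and macrophages, stood at 97.0 FPKM in the MAC library and 46.0 FPKM in EMPs.

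Macrophage identity genes were higher as far as they were measured, but from low levels. Of 29 in the table, 18 reached 1 FPKM in either library, 14 of these were at least 2-fold higher and none lower, and their median was 1.38 (1.52 after scaling). The other 11 stayed under 1 FPKM in both libraries. Ctss, a lysosomal cathepsin of macrophages and other antigen-presenting cells, differed by 3.78. C1qb and C1qc, chains of complement C1q, were at 6.82 and 2.89 FPKM in the MAC library and listed at 0 in EMPs, while C1qa was at 0.17 FPKM and again listed at 0 in EMPs. Cx3cr1, the fractalkine receptor of early macrophages, stood at 4.48 FPKM in the MAC library, against 0.73 FPKM in EMPs. Maf, a transcription factor that sustains the macrophage state, was at 1.94 FPKM in the MAC library and 0.04 FPKM in EMPs. Cd68, a lysosomal membrane protein, stood at 20.8 FPKM in the MAC library, against 8.01 FPKM in EMPs. Mertk, which mediates uptake of dying cells, was at 1.03 FPKM in the MAC library and 0.05 FPKM in EMPs.

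Receptors that guide migration were higher in 15 of 20 members, with 1 lower and a median of 1.61 (1.82 after scaling). C5ar1, the C5a receptor, stood at 20.8 FPKM in the MAC library, against 1.69 FPKM in EMPs. Fpr1 and Fpr2, receptors for formyl peptides, were at 6.32 and 7.41 FPKM in the MAC library and at 0.06 and 0.13 FPKM in EMPs. Cxcr4, which holds cells in blood-forming niches, stood at 93.5 FPKM in the MAC library, against 31.2 FPKM in EMPs. The 1 lower member was S1pr1, a sphingosine-1-phosphate receptor, at 0.14 FPKM in the MAC library and 1.79 FPKM in EMPs. Complement genes were higher in 9 of 10 members at a median of 2.03 (2.22 after scaling). C3 itself stood at 108 FPKM in the MAC library, against 45.0 FPKM in EMPs.

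Among integrins and adhesion genes 4 of 21 were 2-fold higher and 1 lower, with a median of 0.06 (0.26 after scaling). Itgam, the CD11b chain, stood at 125 FPKM in the MAC library, against 29.2 FPKM in EMPs. Its partner Itgb2 stood at 102 FPKM in the MAC library and 39.8 FPKM in EMPs. Itgal, the LFA-1 alpha chain, and Cd177, a neutrophil surface protein, were the other two. The lower gene was Itga6, a laminin receptor chain of progenitors, at 0.91 FPKM in the MAC library, against 8.27 FPKM in EMPs. Itgb7, the integrin chain of gut-homing and mast cell precursors, was under 1 FPKM in both, at 0.72 in the MAC library, against 0.15 in EMPs. The EMP description holds LiB7_neg, and the part of the sort in the EMP value was not tested.

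Killing and sensing machinery was partly higher. The phagocyte NADPH oxidase makes superoxide from a membrane core and cytosolic subunits, and 2 of its 7 genes were 2-fold higher, with a median of 0.90 (1.15 after scaling). Both encode the membrane core. Cybb, the catalytic chain, stood at 159 FPKM in the MAC library and 11.1 FPKM in EMPs. Cyba, its partner, stood at 50.2 FPKM in the MAC library, against 18.5 FPKM in EMPs. The cytosolic subunits Ncf1 and Ncf4 and the GTPase Rac2 differed by 0.65, 0.90 and 0.33, and after scaling Ncf4 and the proton channel gene Hvcn1 also passed 2-fold. Pattern recognition genes were higher in 12 of 32 members and lower in 1, with a median of 0.74 (0.91 after scaling). Tlr13 and Tlr8, endosomal receptors for microbial RNA, were at 5.64 and 3.66 FPKM in the MAC library, with 0.02 FPKM and a listing of 0 in EMPs. The signalling adaptors Myd88 and Pycard were not 2-fold apart, with differences of −0.19 and −0.66.

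Activating and inhibitory immune receptors were higher in 14 of 28 members, with none lower and a median of 0.997 (1.24 after scaling). The common signalling adaptor Tyrobp (DAP12) stood at 322 FPKM in the MAC library, against 102 FPKM in EMPs. The inhibitory lectin gene Siglece stood at 27.5 FPKM in the MAC library and 6.80 FPKM in EMPs. Fc receptors for immunoglobulin G were closer, with Fcgr3 at 41.7 FPKM in the MAC library, against 30.3 FPKM in EMPs. Lysosomal genes were higher in 9 of 35 members and lower in 1, with a median of 0.43 (0.68 after scaling). Among these, the aminopeptidase gene Ctsh stood at 24.5 FPKM in the MAC library, against 0.70 FPKM in EMPs. Psap, the precursor of sphingolipid activator proteins, stood at 161 FPKM in the MAC library and 29.9 FPKM in EMPs. General lysosomal components moved little, such as Ctsd, cathepsin D, with 78.8 FPKM in the MAC library, against 80.2 FPKM in EMPs. The lower gene was Glb1, acid beta-galactosidase, at 1.76 FPKM in the MAC library, against 7.70 FPKM in EMPs.

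Of the 15 S100 and annexin genes 7 were 2-fold higher and none lower (median 0.78, 1.01 after scaling), among them Anxa1, an anti-inflammatory annexin, at 208 FPKM in the MAC library and 52.3 FPKM in EMPs. Interferon response genes were higher in 9 of 20 members at a median of 0.94 (1.14 after scaling), and 13 further members were under 1 FPKM in both libraries. Ifitm3, which blocks virus entry, stood at 300.2 FPKM in the MAC library, against 29.2 FPKM in EMPs. Its neighbours Ifitm2 and Ifitm1 were not higher, with differences of −0.50 and −0.82. Lipid mediator enzymes were higher in 6 of 14 members at a median of 0.30 (0.51 after scaling), including Alox5 and its activator Alox5ap, which open leukotriene synthesis, with differences of 1.28 and 1.29. Antigen presentation genes were higher in 2 of 13 members at a median of 0.39 (0.64 after scaling). B2m, the class I light chain, stood at 242 FPKM in the MAC library, against 124 FPKM in EMPs. The largest difference of the list was that of H2-DMa, a gene of the class II locus, at 2.11 (2.26 after scaling). The class II gene H2-Ab1 was at 0.07 FPKM in the MAC library and 0.96 FPKM in EMPs. Cd74 and Ciita, the class II chaperone and regulator, were listed at 0 in both.

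Of 35 myeloid transcription factor genes 7 were 2-fold higher and 3 lower, with a median of 0.27 (0.46 after scaling). Spi1, which encodes the master regulator PU.1, stood at 99.1 FPKM in the MAC library, against 108 FPKM in EMPs. Id2, an inhibitor of E proteins, was the only one called higher, at 10.1 FPKM in the MAC library, against 0.64 FPKM in EMPs. Irf5, an activator of inflammatory genes, stood at 14.4 FPKM in the MAC library and 4.46 FPKM in EMPs. The lower genes included Cebpa, needed for the granulocyte and monocyte progenitor, at 1.43 FPKM in the MAC library, against 5.02 FPKM in EMPs. Gfi1, a repressor that favours granulocytes, was at 2.61 FPKM in the MAC library, against 10.01 FPKM in EMPs. Rxra, a nuclear receptor gene, was the third, listed at 0 in the MAC library and at 2.23 FPKM in EMPs.

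Cytokine receptors were higher in 3 of 33 members and lower in 3, with a median of 0.16 (0.41 after scaling). The higher ones were Csf1r, Il5ra and Il13ra1, a receptor chain for interleukin-13. The shared and specific chains for GM-CSF were close, with Csf2rb at 67.8 FPKM in the MAC library and 54.5 FPKM in EMPs and Csf2ra at 65.5 FPKM in the MAC library, against 58.3 FPKM in EMPs. The lower ones included the progenitor receptors Kit and Flt3, described next.

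Progenitor surface and regulator genes were lower in 22 of 34 members, higher in none, and had a median of −1.21 (18 lower and −1.03 after scaling). Kit, the stem cell factor receptor, was just short of the 4-fold call at −1.96, with 9.96 FPKM in the MAC library and 41.7 FPKM in EMPs. Flt3, a cytokine receptor of multipotent progenitors, was at 0.03 FPKM in the MAC library, against 2.22 FPKM in EMPs. Cd34, the sialomucin of progenitors, stayed within 2-fold, with 42.2 FPKM in the MAC library, against 73.8 FPKM in EMPs. Adgrg1, an adhesion receptor of stem and progenitor cells, had the lowest value of the list at −3.38. On GRCm38 these protein-coding genes lie apart, with Kit on chromosome 5 at 75574916 to 75656722 and Adgrg1 on chromosome 8 at 94974751 to 95014217. Angpt1, the angiopoietin-1 ligand, was at 0.73 FPKM in the MAC library and 5.86 FPKM in EMPs.

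Among progenitor regulators, Gata2, which maintains stem and mast cells, was at 1.09 FPKM in the MAC library, against 10.98 FPKM in EMPs. Tal1, a partner of GATA factors, was at 0.98 FPKM in the MAC library, against 6.87 FPKM in EMPs. Bcl11a, a repressor that also silences fetal globin, was at 2.05 FPKM in the MAC library and 11.6 FPKM in EMPs. Myb, a regulator of progenitor growth, stood at 60.6 FPKM in the MAC library, against 154 FPKM in EMPs. Myc, a driver of growth genes, stood at 33.1 FPKM in the MAC library, against 104 FPKM in EMPs. Cdk6, a cell cycle kinase abundant in progenitors, stood at 38.0 FPKM in the MAC library and 154 FPKM in EMPs. A group of core factors was less than 2-fold apart, with Runx1 at −0.54, Lmo2 at −0.43, Lyl1 at −0.64 and Erg at −0.57.

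Genes of the fetal LIN28 programme and imprinted genes were lower in 7 of 12 members, higher in none, and had a median of −1.19 (5 lower and −0.97 after scaling). Hmga2, a chromatin protein kept high by LIN28, was at 4.14 FPKM in the MAC library, against 40.04 FPKM in EMPs. Lin28b, which blocks maturation of let-7 microRNAs, stood at 8.51 FPKM in the MAC library, against 24.6 FPKM in EMPs. Igf2bp1 and Igf2bp2, RNA-binding proteins of fetal cells, were at 0.95 and 1.06 FPKM in the MAC library and at 5.81 and 5.72 FPKM in EMPs. Igf2bp3 was closer, with a difference of −0.75, and Arid3b was 0.56 higher.

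Traces of other lineages in EMPs were partly lower as well. Erythroid genes were lower in 8 of 18 members and higher in none, with a median of −0.71 (−0.54 after scaling). Klf1, the erythroid master regulator, was at 0.40 FPKM in the MAC library, against 4.83 FPKM in EMPs. Car1, a carbonic anhydrase of red cells, was at 0.08 FPKM in the MAC library and 2.91 FPKM in EMPs. Gata1, shared by erythroid, eosinophil and mast cell lineages, was not lower, at 4.36 FPKM in the MAC library, against 3.58 FPKM in EMPs. Megakaryocyte genes were higher in 2 of 13 members and lower in 3 (median −0.37, −0.21 after scaling), the lower ones including F2r, a thrombin receptor, at 0.45 FPKM in the MAC library, against 7.83 FPKM in EMPs. Of 8 mast cell and basophil genes Kit and Gata2 were lower and none higher (median −0.63, −0.43 after scaling), while the histidine decarboxylase gene Hdc stood at 43.6 FPKM in the MAC library and 60.5 FPKM in EMPs. Endothelial genes were lower in 2 of 4 members (median −1.06, −0.94 after scaling), among them Eng, a TGF-beta co-receptor, at 0.77 FPKM in the MAC library, against 4.33 FPKM in EMPs. The second lower gene, Egfl7, also belongs to the progenitor list, and 20 of 24 endothelial members were under 1 FPKM in both libraries. So were 14 of 32 erythroid, 13 of 26 megakaryocyte and 23 of 31 mast cell and basophil members. Hepatoblast and mesenchymal genes were almost absent, with 25 of 27 and 17 of 20 members under 1 FPKM in both libraries. Alb, albumin of hepatocytes, was at 0.51 FPKM in the MAC library, against 0.31 FPKM in EMPs. Lymphoid genes were under 1 FPKM in both libraries in 20 of 24 members. Of the other 4, 2 were 2-fold higher and none lower, with a median of 0.62 (0.79 after scaling). These were Cd3d, a T cell receptor chain, at 1.20 FPKM in the MAC library and listed at 0 in EMPs, and Cd7, a T and NK cell surface protein, at 1.55 FPKM in the MAC library and 0.24 FPKM in EMPs.

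All 51 ribosome biogenesis genes reached 1 FPKM, 26 were at least 2-fold lower and none higher, with a median of −1.01 (20 lower and −0.80 after scaling). Fbl, the rRNA methyltransferase fibrillarin, stood at 30.8 FPKM in the MAC library and 95.3 FPKM in EMPs. Gar1, a protein of pseudouridylation particles, was at 3.75 FPKM in the MAC library, against 17.8 FPKM in EMPs. Polr1a and Polr1b, the large subunits of RNA polymerase I, differed by −1.45 and −1.30. Only Bysl, a small subunit factor, lay above 0 in the values as deposited, at 0.46. The 36 ribosomal protein genes listed had 5 lower, none higher and a median of −0.55 (1 lower and −0.28 after scaling), and many have processed copies that can share reads. The list does not hold Rps27, which was listed at 0 in the MAC library and is described with the lower calls.

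Chaperones were lower in 16 of 27 members and higher in none, with a median of −1.08 (6 lower and −0.82 after scaling). Hsp90ab1, the constitutive cytosolic HSP90, stood at 354 FPKM in the MAC library, against 990.1 FPKM in EMPs. Hsph1, a nucleotide exchange factor for HSP70, was at 19.5 FPKM in the MAC library and 74.6 FPKM in EMPs. Hspa5, the endoplasmic reticulum chaperone BiP, stood at 132 FPKM in the MAC library, against 334 FPKM in EMPs. Genes for tRNA synthetases were lower in 10 of 24 members (median −0.94), which left 3 of 24 and −0.70 after scaling. The lowest was Farsa, a phenylalanyl-tRNA synthetase chain, at 5.73 FPKM in the MAC library, against 16.9 FPKM in EMPs.

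Nucleotide and one-carbon synthesis genes were lower in 11 of 33 members and higher in none, with a median of −0.62 (7 lower and −0.39 after scaling). Phgdh, which opens serine synthesis, was called lower as deposited but not after scaling (−1.85), with 10.2 FPKM in the MAC library and 47.5 FPKM in EMPs. Shmt2, the mitochondrial serine hydroxymethyltransferase, stood at 41.0 FPKM in the MAC library, against 106 FPKM in EMPs. Cad, the enzyme that starts pyrimidine synthesis, was at 6.27 FPKM in the MAC library, against 27.6 FPKM in EMPs. Tyms, thymidylate synthase, was at 18.1 FPKM in the MAC library and 18.2 FPKM in EMPs. Polyamine, proline and methionine genes were lower in 6 of 15 members and higher in 2 (median −0.58, −0.36 after scaling). The medians of −0.62 and −0.58 lay within the SD of 0.42 around the subunit median of −0.41. Neither list was thus clearly lower as a whole. Srm, spermidine synthase, was at 18.6 FPKM in the MAC library and 86.7 FPKM in EMPs. Odc1, ornithine decarboxylase, stood at 29.0 FPKM in the MAC library, against 85.5 FPKM in EMPs. Sat1, which acetylates polyamines for export and breakdown, was higher, with 59.3 FPKM in the MAC library, against 18.5 FPKM in EMPs. Amd1, S-adenosylmethionine decarboxylase, was at 9.63 FPKM in the MAC library and listed at 0 in EMPs, while its copy Amd2 was at 5.53 FPKM in the MAC library and 21.5 FPKM in EMPs. The assignment of reads between these near copies was not tested.

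**Figure D4:**
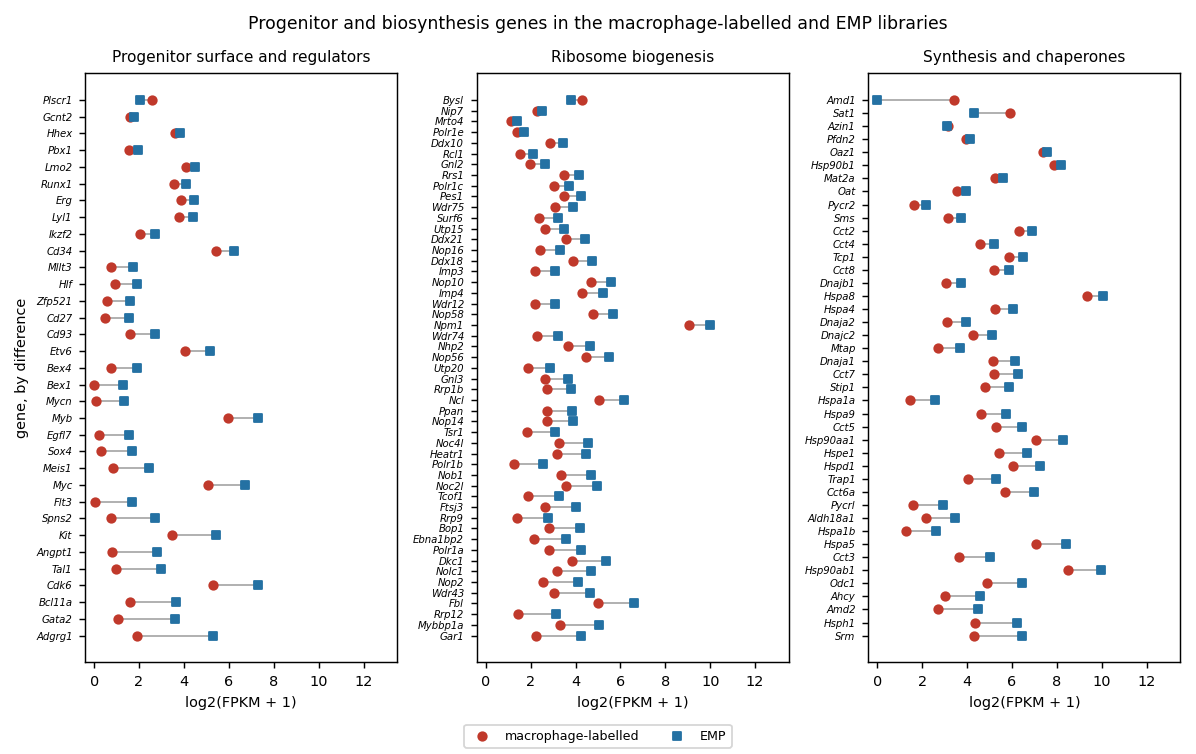
log2(FPKM + 1) of progenitor genes (left), ribosome biogenesis genes (middle), and polyamine, proline, methionine and chaperone genes (right), red circles macrophage-labelled and blue squares EMP, ordered by difference. Most circles lie left of their squares, and 33 of the 34 progenitor genes are drawn, with 22 of 34 progenitor and 26 of 51 ribosome biogenesis genes at least 2-fold lower.

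Cell division genes were nearly level. DNA replication genes were lower in 2 of 41 members and higher in none (median −0.40, −0.15 after scaling), and mitotic genes were lower in 1 of 38 and higher in none (median 0.14, 0.39 with 2 higher after scaling). Mki67, the proliferation antigen, stood at 122 FPKM in the MAC library, against 71.7 FPKM in EMPs. Pcna, the replication clamp, stood at 232 FPKM in the MAC library, against 215 FPKM in EMPs. Mcm10, a replication initiation factor, was 2-fold lower, at 1.61 FPKM in the MAC library and 8.22 FPKM in EMPs. Of 23 growth arrest genes 5 were 2-fold higher and 1 lower (median 0.20, 0.45 after scaling). The antiproliferative gene Btg2 stood at 21.4 FPKM in the MAC library, against 6.24 FPKM in EMPs. Mxd1, which opposes MYC at E-boxes, was at 6.65 FPKM in the MAC library, against 2.46 FPKM in EMPs. The cell cycle inhibitor Cdkn1a was not higher, at 8.53 FPKM in the MAC library and 14.4 FPKM in EMPs.

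Metabolic lists moved little. Glycolysis and pentose phosphate genes were higher in 1 of 28 members and lower in 3 (median −0.28, −0.05 after scaling). The glucose transporter gene Slc2a3 was at 18.8 FPKM in the MAC library, against 8.15 FPKM in EMPs. The lower ones were Pfkp and Pfkl, phosphofructokinase forms, and Ldha, lactate dehydrogenase A, which stood at 254 FPKM in the MAC library, against 566 FPKM in EMPs. Cholesterol synthesis genes were lower in 4 of 19 members and higher in none (median −0.37, −0.17 after scaling). Heme and iron genes were higher in 3 of 23 members and lower in 2 (median −0.22, −0.0002 after scaling). The higher ones were Slc40a1, Hmox1 and Slc11a1, a phagosomal metal transporter. Slc40a1, the iron exporter ferroportin, was at 4.79 FPKM in the MAC library and 1.71 FPKM in EMPs. Hmox1, heme oxygenase, was at 5.73 FPKM in the MAC library, against 2.02 FPKM in EMPs.

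The 76 higher genes had low medians in the 4 libraries of the mast cell lineage, which the calls did not use. Their median was 41.0 FPKM in the MAC library, 4.08 in EMPs, 4.34 in liver mast cell progenitors (MCPs) at E11.5, 3.07 in limb MCPs at E11.5, 0.205 in limb MCPs at E14.5 and 0.090 in skin cells at E16.5. The calls require a MAC value well above EMPs, which favours a high rank, and no share over all 3179 genes was taken. The MAC library was the highest of the 6 for 69 of the 76. Exceptions included Cd24a, a glycoprotein of immature blood cells, at 115.3 FPKM in the MAC library and 134 in liver MCPs, and Adora3, an adenosine receptor of mast cells and eosinophils, at 11.6 FPKM in the MAC library and 74.8 in limb MCPs at E14.5. The 21 lower genes had a median of 2.05 FPKM in the MAC library, 16.8 in EMPs and 14.4 in liver MCPs. Liver MCPs were above the MAC library for 20 of these 21. Both comparisons share the MAC library, so these levels are given side by side only.

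**Figure D5:**
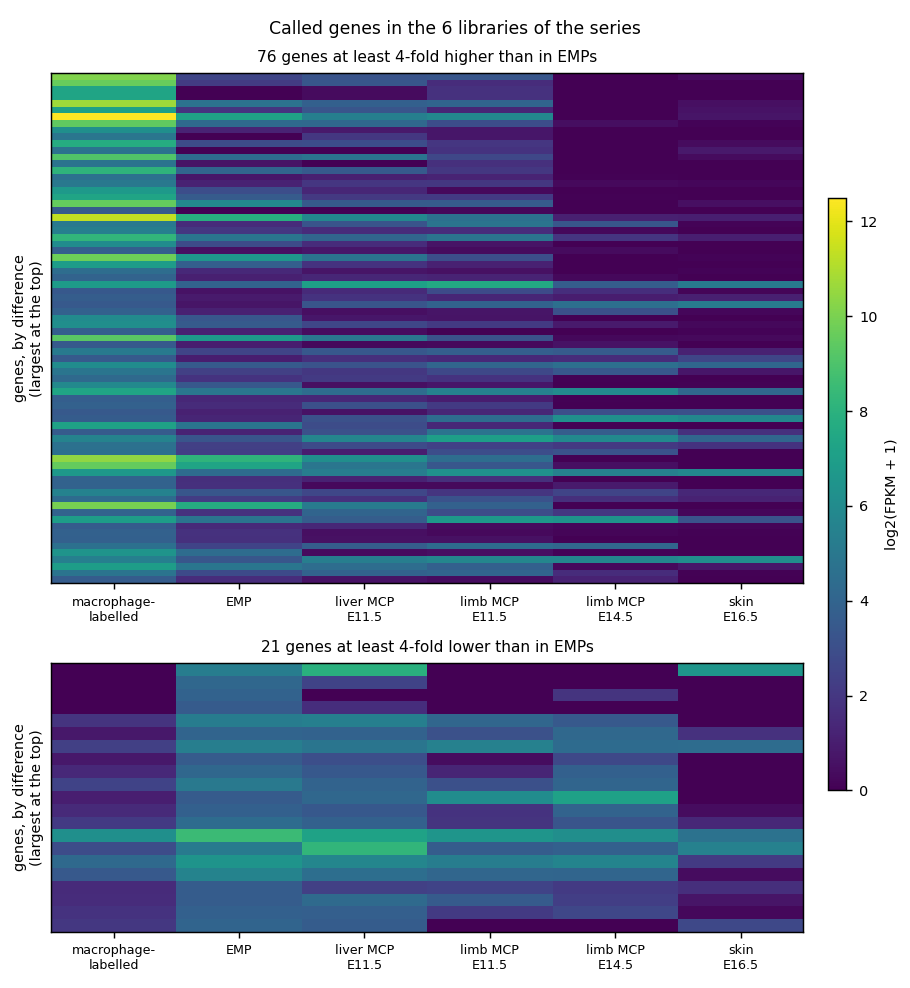
log2(FPKM + 1), as colour, of the 76 higher genes (top) and 21 lower genes (bottom) in each of the 6 libraries (columns), ordered by difference. The left column is brightest over most of the top panel, where its median is 41.0 FPKM. In the bottom panel its median is 2.05 FPKM, and it is the lowest of the 6, ties included, for 8 genes.

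Among the 21 lower genes 4 were listed at 0 in the MAC library, and an exact 0 can be a failed estimate. Rps27, a ribosomal protein gene that cells use throughout, was 1 of them, with 38.8 FPKM in EMPs and a further listing of 0 in both limb libraries. Hyou1, a chaperone of the endoplasmic reticulum outside the chaperone list, Lrp5, a WNT co-receptor, and Emilin1, a matrix glycoprotein, were at 16.8, 14.4 and 10.9 FPKM in EMPs. Of the 76 higher genes 5 were listed at 0 in EMPs, namely Ear3, Ear7, Ear12, Rnase2b and Ifitm6, and no fold is given for these. Genes just inside the call limit were Tgfbi, a secreted matrix protein of monocytes, at 2.005, and Lsp1, a leukocyte actin-binding protein, at 2.02. Just outside it were Anxa1 at 1.97 on the higher side and Cdk6 and Gar1 at −1.99 on the lower side.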

How the data were processed

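Total RNA was taken from sorted cells and sequenced on an Illumina HiSeq, per the labels' protocols. The authors deposited 1 table of FPKM values for 6 libraries. The submitters' processing notes name the tools Bowtie2 and RSEM and the genome build mm10 (GRCm38), and the sources used here give no versions. FPKM is not a count, so no count model was fitted. Of 17913 rows 4 with a repeated name were dropped, and 22 symbols turned into dates were kept unnamed. A pseudocount of 1 was added before log2. Size factors were medians of ratios. Of 9 alternative settings, 1 was chosen after seeing the data.

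Depth was estimated from the steps between FPKM values of 1408 genes. There, 79.3% of usable MAC values and 76.6% of EMP values lay within 0.2 of whole fragments, against 40% by chance, and 3 fragments on 2 kb stood for 0.133 and 0.122 FPKM in that order (counting error only). Calls and depth were tested on simulated data.

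The members and the 42 gene lists were chosen with earlier results of these data known. Ltf and Plaur were removed from lists they did not belong to after values had been seen. Named genes were the 25 largest differences in each direction among called genes, sort genes, and in each list up to 5 largest differences in each direction, its most abundant member and members stating its role. Values of some list members are not reported here, though list counts and medians include them. A few others, such as those near the call limit, were chosen after their values were seen. Positions came from GENCODE M21 and upstream sequence from RefSeq (GRCm38.p6).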

Additional observations from a re-analysis of the deposited data

How the results depend on the processing

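As TPM, with the limits and the pseudocount on that scale, 286 genes were higher and 206 lower of 8120. There 10 FPKM corresponded to 62.1 TPM in the MAC library and 59.1 TPM in EMPs, so a limit of 10 TPM lets in lower genes by construction. Rescaling to the same FPKM sum with the limits on deposited FPKM was therefore added, after the TPM counts had been seen, and gave 80 higher and 18 lower. With a pseudocount of 5 the counts were 39 higher and 5 lower, with no expression filter 124 higher and 63 lower, and at 30 FPKM or more 42 higher and 8 lower. A pseudocount of 0.1 gave 32 lower. The filters change which genes can pass by their construction. Counts under the other alternatives ran from 61 to 87 higher and from 14 to 18 lower, the least higher with granule genes left out and the rest rescaled to the same sum. No called gene named here changed sign. Under the alternatives 48 list medians moved by more than the 0.42 of the subunit genes and 320 by less, and 324 gene differences moved by more and 2449 by less. All 12 lists with a median of at least 1 in size kept their direction under each alternative that gave them a value. With granule genes left out the eosinophil and late neutrophil lists had no value, and the endothelial list had none at 30 FPKM or more. In at least 1 alternative 4 other lists changed sign. The eosinophil median ran from 2.87 to 5.57, the macrophage median from 0.58 to 2.59 and the progenitor median from −1.88 to −0.49. No paired analysis was possible because each group held 1 library. Depth limits values near 0.13 FPKM on 2 kb, and no replicate error could be had.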

Other observations

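Called genes outside the lists included further myeloid products. Mpeg1, a pore-forming protein of phagocytes, stood at 40.7 FPKM in the MAC library and 3.06 FPKM in EMPs. Chil1, a chitinase-like protein of neutrophil granules, stood at 58.5 FPKM in the MAC library and 10 FPKM in EMPs. Pld4, an exonuclease of endolysosomes, was at 28.0 FPKM in the MAC library and 4.14 FPKM in EMPs. Lrrk2, a kinase active at lysosomes of myeloid cells, was at 13.6 FPKM in the MAC library and 2.39 FPKM in EMPs. Gapt, an adaptor-binding membrane protein of leukocytes, was at 72.2 FPKM in the MAC library and 10.8 FPKM in EMPs. In all, 31 of the 76 higher genes and 14 of the 21 lower genes were in no list.

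Lower genes outside the lists included Nup85, a nuclear pore scaffold protein, at 0.73 FPKM in the MAC library and 10.98 FPKM in EMPs. Elp3, the catalytic subunit of the Elongator tRNA modification complex, was at 1.77 FPKM in the MAC library and 13.1 FPKM in EMPs. Egln3, an oxygen-sensing prolyl hydroxylase, was at 1.93 FPKM in the MAC library and 11.53 FPKM in EMPs, and was not called after scaling (−1.88). Eef1a1, a translation elongation factor with many processed copies, was at 6.58 FPKM in the MAC library and 33.3 FPKM in EMPs, and its value is uncertain for that reason. It was not called after scaling either (−1.93).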
